A study of Mus musculus with 4 samples.

Results

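The sirtuins are a family of 7 genes in the mouse, Sirt1 to Sirt7, and their transcripts were followed in 4 RNA sequencing libraries of primary embryonic fibroblasts. The members were taken by symbol, and all 7 were found among the 23235 symbols of each deposited table. Each genotype gave 1 library. The labels named the genotypes wild type, Gadd45-/-, G3 Terc-/- and G3 Gadd45-/-Terc-/- (dKO), all on the C57BL/6 strain and with no treatment, age or passage stated. The design text of the series gave the first gene as Gadd45a, a stress-induced gene linked to DNA repair and demethylation. Terc encodes the RNA template of telomerase, and G3 marks the 3rd generation of mice bred without it, whose telomeres are shortened. The 4 genotypes allow Gadd45a deficiency to be set against its control on either Terc background, and Terc deficiency on either Gadd45a background.

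Sirtuins remove acetyl and longer acyl groups from lysines and consume 1 molecule of NAD for each group removed, so their activity is tied to the NAD supply of the cell. Sirt1, Sirt6 and Sirt7 act mainly in the nucleus, Sirt2 mainly in the cytoplasm, and Sirt3, Sirt4 and Sirt5 in mitochondria. In fibroblasts the family is known for links to senescence, chromatin at telomeres, ribosomal DNA and oxidative metabolism.

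Values are FPKM as deposited, fragments scaled to transcript length and to the mapped fragments of the library, so levels of different genes are compared per length. Differences are differences of log2(FPKM + 1), and a size rule of 1 in either direction, which is 2-fold on FPKM + 1, decided whether a gene was called higher or lower. With 1 library a genotype there is no error between cultures, no test and no p-value, and every difference below is between single libraries. Depth, estimated from the steps of low FPKM values, was 19200000 to 19900000 fragments. From it each sirtuin's number of fragments was estimated, with an exact Poisson interval of 95% that covers counting error only. The Gadd45a transcript stood at 22.9 FPKM in wild type, 33.9 in the Gadd45-/- library, 31.4 in G3 Terc-/- and 45.1 in G3 dKO. It was thus not lower in the libraries labelled as deficient, and Gadd45-/- and G3 dKO stand throughout for the libraries labelled so. Terc stood at 0.53 and 0.26 FPKM in the Terc-proficient libraries and was listed at 0 in both G3 libraries. All 4 values lie near the floor in libraries of polyadenylated RNA, so the values of 0 cannot check the Terc label. The Gadd45-/- library held the Y-linked Ddx3y at 16.4 FPKM and Xist at 0.15 FPKM, while the other 3 held Xist at 24.0 to 34.1 FPKM, so sex and genotype cannot be told apart in comparisons with that library. Of 8 fibroblast markers none was listed at 0, and their summed level was 5561 FPKM in G3 Terc-/- and 9265 to 10691 FPKM elsewhere. The markers did not move together: 6 were lower in G3 Terc-/- than in wild type and 2 were higher. These 2 were Dcn (584 against 25.6 FPKM) and Pdgfra (37.1 against 33.2 FPKM). Summed markers of endothelium (1.34 to 2.01 FPKM), macrophages (2.22 to 4.13 FPKM) and erythroid cells (0.33 to 0.91 FPKM) were low, those of epithelium (9.04 to 20.6 FPKM), skeletal muscle (64.1 to 139 FPKM) and neural cells (44.7 to 102 FPKM) higher, and those of hepatocytes stood at 8.68 FPKM in wild type against 0.50 FPKM or less elsewhere. The higher sums came mostly from Krt19 (7.37 to 15.9 FPKM) and Krt18 (1.22 to 5.52 FPKM) in the epithelial list, from Acta1 (38 to 120 FPKM) and Des (12.1 to 25.9 FPKM) in the muscle list, and from Tubb3 (26.1 to 77.0 FPKM) and Nes (15.7 to 25.1 FPKM) in the neural list. In the same lists Cdh1 was at 0.01 FPKM or less, Myog and Elavl3 at 0.04 FPKM or less, and Epcam, Myod1 and Myh3 at 0.13 FPKM or less. Krt8 stood at 3.04, 0.53, 0.06 and 0.63 FPKM in wild type, Gadd45-/-, G3 Terc-/- and G3 dKO. In the same order Sox2 stood at 0.52, 0.91, 0 and 0.02 FPKM and Sox10 at 0.53, 0.38, 0 and 0.02 FPKM. The part of these markers in the sirtuin values was not tested.

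Sirt1 encodes the nuclear deacetylase whose best known substrates are p53 and the FOXO factors. Its transcript stood at 5.46 FPKM in wild type, 5.03 in Gadd45-/-, 1.88 in G3 Terc-/- and 2.90 in G3 dKO. The Terc-proficient libraries were high and close to each other, the G3 libraries were low, and G3 Terc-/- was the lowest. The values stand for about 388, 371, 135 and 211 fragments. The counting intervals of wild type (4.93 to 6.03 FPKM) and Gadd45-/- (4.53 to 5.57 FPKM) overlapped, and neither reached that of G3 dKO (2.53 to 3.33 FPKM) or of G3 Terc-/- (1.57 to 2.22 FPKM). Wild type held 2.91 times the Sirt1 FPKM of G3 Terc-/- and 1.88 times that of G3 dKO.

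The 250 bases upstream of the RefSeq start of Sirt1 are shown because Sirt1 is the member that passed the size rule, in RefSeq's GRCm38.p6 build, minus strand, chr10:63339036-63339285, with the motif CACGTG (an E-box) in capitals.
Sirt1 upstream: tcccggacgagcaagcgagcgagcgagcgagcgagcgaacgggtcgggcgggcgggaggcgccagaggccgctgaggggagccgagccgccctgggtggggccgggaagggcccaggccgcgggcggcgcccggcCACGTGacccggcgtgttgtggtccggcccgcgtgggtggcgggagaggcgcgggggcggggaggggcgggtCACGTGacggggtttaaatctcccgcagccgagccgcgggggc
The stretch is 79.2% G and C and holds 39 CpG dinucleotides. The full window of 300 bases, with 50 bases after the start, held 47 CpG, against a median of 13 over 21263 windows of protein-coding genes. CACGTG occurred 2 times, beginning 115 and 43 bases upstream of the start, and in no other sirtuin window. It was present in 7.84% of the protein-coding windows. The shorter ACGTG, the core of hypoxia-response elements, was found in Sirt1 inside these 2 E-boxes alone, and also in Sirt4 (2 matches), Sirt5 (1 match) and Sirt6 (2 matches), against 20.9% of protein-coding windows. The E2F letters TTTGGCGC and TTTCGCGC were found in none of the 9 sirtuin windows, and in 0.63% and 0.45% of protein-coding windows. Both strands were searched, and matches describe letters, not bound sites.

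Sirt6, a nuclear histone deacetylase that acts at telomeres and at glycolytic gene promoters in mouse cells, stood at 11.5 FPKM in wild type, 11.5 in Gadd45-/-, 14.5 in G3 Terc-/- and 12.2 in G3 dKO. G3 Terc-/- was the highest, 1.26 times wild type, and its counting interval (13.3 to 15.9 FPKM) lay above that of wild type (10.4 to 12.7 FPKM) and overlapped that of G3 dKO (11.0 to 13.4 FPKM). Sirt7, which works in the nucleolus with RNA polymerase I, stood at 14.5 FPKM in wild type, 15.7 in Gadd45-/-, 16.4 in G3 Terc-/- and 16.5 in G3 dKO. All 4 counting intervals of Sirt7 overlapped, and its highest and lowest values differed by a factor of 1.14.

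Sirt2, a cytoplasmic deacetylase of tubulin, was the most abundant member in every library. It stood at 56.3 FPKM in wild type, 49.3 in Gadd45-/-, 49.8 in G3 Terc-/- and 49.6 in G3 dKO. Wild type was the highest and the other 3 lay between 49.3 and 49.8 FPKM. The interval of wild type (53.8 to 59.0 FPKM) did not overlap any of the others, which together ran from 46.9 to 52.3 FPKM.

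Sirt3, the main mitochondrial deacetylase, stood at 2.59 FPKM in wild type, 2.0 in Gadd45-/-, 5.85 in G3 Terc-/- and 3.49 in G3 dKO. G3 Terc-/- was the highest, at 2.26 times wild type, and its interval (4.93 to 6.89 FPKM, from about 143 fragments) did not overlap those of the other 3. The intervals of wild type (2.0 to 3.33 FPKM, about 63 fragments) and G3 dKO (2.78 to 4.30 FPKM, about 86 fragments) overlapped. Sirt4, a mitochondrial enzyme known to restrain glutamate and pyruvate dehydrogenase, followed the same order. It stood at 3.83 FPKM in wild type, 3.67 in Gadd45-/-, 7.55 in G3 Terc-/- and 5.09 in G3 dKO, so that G3 Terc-/- held 1.97 times the wild-type level. The interval of G3 Terc-/- (6.63 to 8.60 FPKM) lay above those of the other 3, and G3 dKO (4.33 to 5.94 FPKM) overlapped wild type (3.16 to 4.58 FPKM).

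Sirt5, which removes succinyl, malonyl and glutaryl groups in mitochondria, stood at 4.33 FPKM in wild type, 2.85 in Gadd45-/-, 5.30 in G3 Terc-/- and 4.76 in G3 dKO. Here the Gadd45-/- library was the low one, with about 68 fragments against 100 in wild type. Its interval (2.21 to 3.62 FPKM) still touched that of wild type (3.54 to 5.29 FPKM). It lay below those of G3 Terc-/- (4.40 to 6.31 FPKM) and G3 dKO (3.93 to 5.74 FPKM). The intervals of the other 3 libraries overlapped each other.

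**Figure D1:**
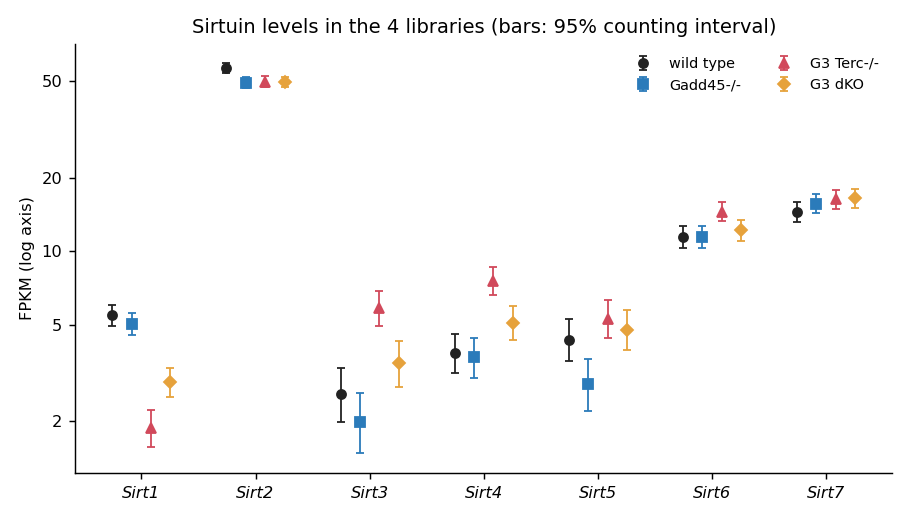
FPKM (log axis) of the 7 sirtuins in the 4 libraries, 1 point a library, with bars for the 95% Poisson counting interval, which does not include variation between cultures. Sirt1 is lowest in G3 Terc-/- (1.88 FPKM), Sirt3 and Sirt4 are highest there (5.85 and 7.55 FPKM), and Sirt2 and Sirt7 are nearly level.

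In wild type the levels ran from Sirt2 through Sirt7, Sirt6, Sirt1, Sirt5 and Sirt4 down to Sirt3, and each neighbouring pair from Sirt1 downwards had overlapping counting intervals. In G3 Terc-/- the order was Sirt2, Sirt7, Sirt6, Sirt4, Sirt3, Sirt5 and Sirt1, with Sirt1 last. There the intervals of Sirt6 and Sirt7 overlapped, as did those of Sirt4 and Sirt3 and of Sirt3 and Sirt5, while Sirt1 lay apart. The summed FPKM of the family differed little, at 98.6, 90.0, 101 and 94.6 in wild type, Gadd45-/-, G3 Terc-/- and G3 dKO. Within that sum Sirt1 made up 5.54%, 5.59%, 1.85% and 3.07%, and the 3 mitochondrial members together 10.9%, 9.47%, 18.5% and 14.1%, in the same order of libraries. Sirt1 held 2.11 times the FPKM of Sirt3 in wild type and 2.52 times in Gadd45-/-, but 0.32 times in G3 Terc-/- and 0.83 times in G3 dKO. Set among the 11588 symbols with a mean of 1 FPKM or more, which all 7 sirtuins reached, the mean level of Sirt2 lay at percentile 85.9, Sirt7 and Sirt6 at percentiles 59.8 and 52.4, and the other 4 between 19.1 and 27.1.

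**Figure D2:**
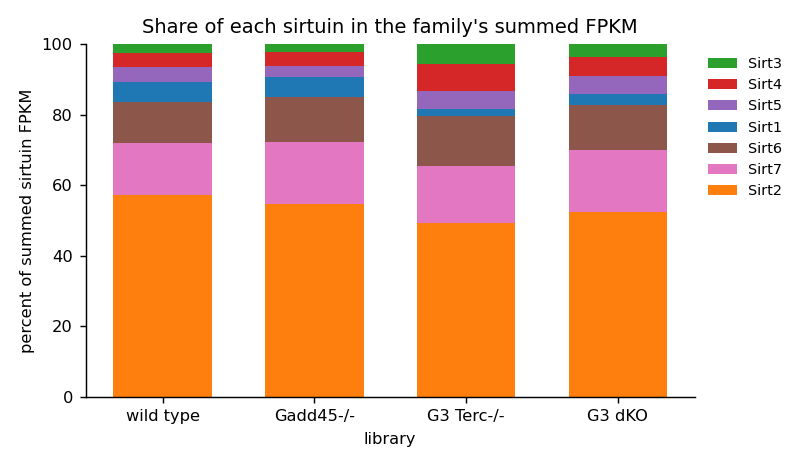
Percent of the summed sirtuin FPKM held by each member in each of the 4 libraries. The Sirt1 share is 5.54% in wild type and 1.85% in G3 Terc-/-, and Sirt2 holds 49.2% to 57.1%.

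The comparison of G3 Terc-/- with wild type concerns Terc deficiency where neither library carries the Gadd45-deficient label. Sirt1 was called lower, with a difference of -1.17, and no sirtuin was called higher. Among the 11588 measured genes 6.25% were called lower and 9.93% higher, and among all 22496 symbols compared 9.03% were called in either direction, so 1 of 7 is near the background. Sirt3 (0.93) and Sirt4 (0.82) were just under the rule, and at a 1.5-fold rule Sirt1, Sirt3 and Sirt4 passed, 3 of 7 against 34.3% of measured genes. Sirt6 (0.31), Sirt5 (0.24) and Sirt7 (0.16) had smaller positive differences and Sirt2 a negative one (-0.18). The median over the family was 0.24 and that over measured genes 0.01. Among measured genes Sirt1 lay at percentile 4.52, and Sirt3 and Sirt4 at percentiles 89.0 and 86.9. These values describe bulk RNA, in which fewer cells of a type and less RNA per cell cannot be told apart.

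The comparison of G3 dKO with G3 Terc-/- concerns the Gadd45-deficient label in cells without telomerase RNA. None of the 7 sirtuins was called, against 1.51% of measured genes called higher and 4.78% lower, and 3.64% of all symbols in either direction. The members that stood furthest from wild type in G3 Terc-/- stood closer to it in G3 dKO. Sirt1 was higher in G3 dKO, with a difference of 0.44, and Sirt3 (-0.61), Sirt4 (-0.49), Sirt6 (-0.24) and Sirt5 (-0.13) were lower, while Sirt2 (-0.00) and Sirt7 (0.02) were level. At the 1.5-fold rule Sirt3 alone passed, against 16.9% of measured genes. This comparison and the previous one share the G3 Terc-/- library, so a value that is extreme in it gives opposite signs in both.

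In cells with telomerase RNA the library labelled Gadd45-/- differed from wild type by less. None of the 7 sirtuins was called, against 0.319% of measured genes higher, 0.198% lower and 0.316% of all symbols in either direction. Sirt5 had the largest difference of the family (-0.47), at percentile 1.35 of measured genes, followed by Sirt3 (-0.26) at percentile 6.90. Sirt2 (-0.19), Sirt1 (-0.10), Sirt4 (-0.05) and Sirt6 (-0.00) also had negative values, and Sirt7 a positive one (0.10). No sirtuin passed the 1.5-fold rule, which 2.46% of measured genes did.

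Between G3 dKO and Gadd45-/-, the comparison that bears on Terc deficiency where both libraries carry the Gadd45-deficient label, no sirtuin was called, against 2.49% of measured genes higher, 2.36% lower and 2.64% of all symbols in either direction. Sirt1 was lower (-0.63), and the mitochondrial members Sirt3 (0.58), Sirt5 (0.58) and Sirt4 (0.38) were higher. Sirt6 (0.08), Sirt7 (0.07) and Sirt2 (0.01) were nearly level. Sirt1 alone passed the 1.5-fold rule, against 15.9% of measured genes. Sirt1 lay at percentile 6.81 here and at 4.52 in the comparison of the other G3 library with wild type. These comparisons share no library, but the present one includes the Gadd45-/- library, in which sex and genotype cannot be told apart. Sirt3 and Sirt5 lay at percentiles 91.9 and 91.8 here, and at 89.0 and 65.5 between G3 Terc-/- and wild type.

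Between G3 dKO and wild type no sirtuin was called, against 3.81% of measured genes higher, 2.86% lower and 3.58% of all symbols in either direction. Sirt1 was lower (-0.73) and alone passed the 1.5-fold rule, which 19.7% of measured genes passed. Sirt4 (0.33), Sirt3 (0.32), Sirt7 (0.18), Sirt5 (0.11) and Sirt6 (0.08) were slightly higher, and Sirt2 (-0.18) was lower. The double difference, G3 dKO minus G3 Terc-/- less the difference between Gadd45-/- and wild type, was 0.54 for Sirt1, 0.34 for Sirt5 and 0.18 for Sirt2, and -0.44 for Sirt4, -0.35 for Sirt3, -0.23 for Sirt6 and -0.09 for Sirt7. None reached 1 in size, which 7.82% of measured genes did.

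**Figure D3:**
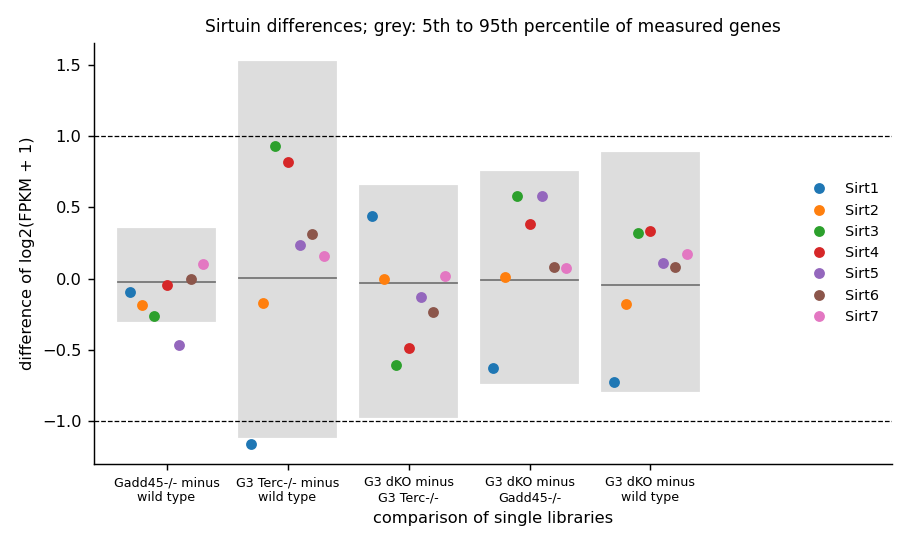
Difference of log2(FPKM + 1) of each sirtuin in the 5 comparisons of single libraries. Grey boxes span the 5th to 95th percentile of the 11588 measured genes with their median as a line, and dashed lines mark the size rule. Sirt1 in G3 Terc-/- minus wild type (-1.17) and Sirt5 in Gadd45-/- minus wild type (-0.47) lie below the boxes.

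Sirt3, Sirt4, Sirt5 and Sirt6 shared 1 order, with G3 Terc-/- highest, then G3 dKO, wild type and Gadd45-/-, an order found in 11.5% of measured genes. The order of Sirt1 was wild type, Gadd45-/-, G3 dKO and G3 Terc-/-, the commonest of all at 17.2%. For Sirt1 the intervals of Gadd45-/- and G3 dKO did not overlap, nor did those of G3 dKO and G3 Terc-/-. In the order shared by Sirt3, Sirt4, Sirt5 and Sirt6, only the step from G3 Terc-/- to G3 dKO in Sirt3 and in Sirt4 had counting intervals that did not overlap. At all other neighbouring steps of that shared order the counting intervals overlapped. Overlap alone does not place a difference within counting error. Taking each gene's log2(FPKM + 1) around its own mean, Sirt3 and Sirt4 lay 0.23 apart over the 4 libraries, and Sirt1 and Sirt3 lay 1.82 apart, the widest pair of the family.

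For the members whose values spanned at least 1 on this scale, Sirt1 (1.17) and Sirt3 (1.19), the 5 genes with the nearest centred values over the 4 libraries were looked up, of which 4 are given for Sirt1. These were Ctdp1, a phosphatase of RNA polymerase II, at a distance of 0.039, and Rbm19, an RNA-binding protein of ribosome assembly, also at 0.039. The others were the chromatin remodeller Chd1l at 0.046 and the mitochondrial ADP/ATP carrier Slc25a5 at 0.050. Chd1l, for example, stood at 4.62, 4.28, 1.6 and 2.48 FPKM in wild type, Gadd45-/-, G3 Terc-/- and G3 dKO. Within the wider distance of 0.25 of Sirt1 lay 339 genes (2.93% of those measured). Nearest to Sirt3 were the fucosyltransferase gene Fut4 (0.044), the palmitoyltransferase gene Zdhhc1 (0.059), Lancl1 (0.069), Asphd2 (0.076) and the radial spoke gene Rsph9 (0.077), and 183 genes (1.58%) lay within 0.25. The FPKM of Zdhhc1 was 8.33, 6.82, 16.1 and 10.9 across those libraries.

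Mitotic genes were low in the libraries in which Sirt1 was low. All 12 mitotic genes listed were called lower in G3 Terc-/- than in wild type, against 6.25% of measured genes, with a median of -2.41. In G3 dKO 10 of 12 were called higher than in G3 Terc-/-, against 1.51% of measured genes. Mki67 stood at 27.9, 24.1, 2.97 and 8.69 FPKM in wild type, Gadd45-/-, G3 Terc-/- and G3 dKO, the same order of libraries as Sirt1 over a wider range. Ccnb1, Plk1 and Cdc20, which drive mitosis, had differences of -2.89, -2.67 and -2.65 between G3 Terc-/- and wild type. The part of proliferation in the Sirt1 values was not tested.

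**Figure D4:**
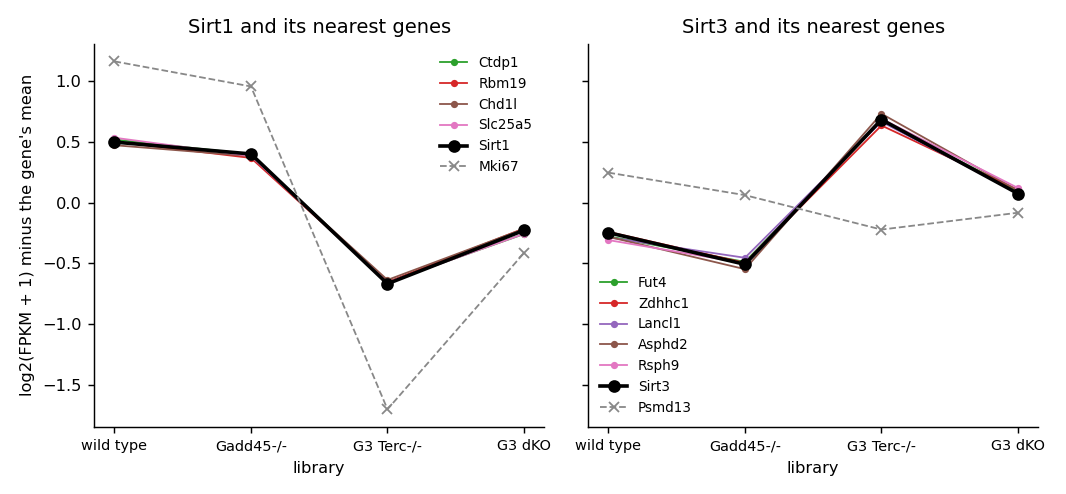
Log2(FPKM + 1) minus each gene's own mean in the 4 libraries for Sirt1 (left) and Sirt3 (right), with 4 and 5 of their nearest genes, and with Mki67 or the head-to-head neighbour Psmd13 as a dashed line. Mki67 follows the order of Sirt1 over a wider range, from 27.9 to 2.97 FPKM, and Psmd13 does not follow Sirt3.

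Sirt3 and Sirt2 each have a protein-coding neighbour transcribed from the opposite strand whose RefSeq start lies within 300 bases, an arrangement shared by 6.48% of 17492 protein-coding genes. Between the starts of Sirt3 and Psmd13, a proteasome subunit gene, lie 84 bases, and between those of Sirt2 and Nfkbib, an inhibitor of NF-kB, 107 bases. These neighbours were chosen by position after the sirtuin values were known. Psmd13 stood at 82.8 FPKM in wild type, 72.7 in Gadd45-/-, 59.6 in G3 Terc-/- and 65.7 in G3 dKO. It was thus lowest in the library in which Sirt3 was highest, with a difference of -0.47 from wild type against 0.93 for Sirt3. Nfkbib stood at 13.6, 14.9, 12.1 and 12.4 FPKM and, like Sirt2, differed little. Where strand was not used in counting, fragments of Sirt3 that overlap the end of Ric8a (listed as Ric8, at most 28.4 FPKM) or those of Sirt2 that overlap the non-coding Gm19897 (0.64 to 0.96 FPKM) could be assigned to either gene.

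The letters CCGGAAG, the core of ETS factor sites, were found on either strand in a window of Sirt3, Sirt6 and Sirt7, and in 11.6% of protein-coding windows. This motif was added after the sequences had been seen. The 30 bases around the match in Sirt3 and in Sirt6 are shown for comparison, both on the minus strand of GRCm38.p6 as given by RefSeq, with the match in capitals, from chr7:140882377-140882406 and chr10:81627584-81627613.
Sirt3: agtgctcgctcaCTTCCGGcaccgcgggcg
Sirt6: gtcccttcaccaCTTCCGGcggaagcggcc
These matches begin 85 and 35 bases upstream of the respective starts. The differences of Sirt3, Sirt6 and Sirt7 were 0.93, 0.31 and 0.16 between G3 Terc-/- and wild type. Those of Sirt1, Sirt2, Sirt4 and Sirt5, which had no match, were -1.17, -0.18, 0.82 and 0.24. A link between the motif and the differences was not tested.

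Among 8 measured genes of NAD supply, of 16 listed and 15 matched, 1 was called higher in G3 Terc-/- than in wild type and none lower. Over measured genes 9.93% were called higher, so this count is near the background. The median was 0.28. That gene was Nmnat2, which joins nicotinamide mononucleotide to the adenylate of NAD, at 0.37, 0.68, 2.68 and 1.57 FPKM in wild type, Gadd45-/-, G3 Terc-/- and G3 dKO. The mitochondrial form Nmnat3 stood at 2.88, 2.79, 4.02 and 1.97 FPKM. Nampt, the rate-limiting enzyme of NAD salvage, was looked at after its values were seen and stood at 10.0, 8.85, 12.8 and 8.77 FPKM. Of the genes of synthesis from tryptophan, Tdo2, Ido1, Kmo, Kynu and Haao were at 0.08 FPKM or less in all 4 libraries, Qprt was at 0.56 FPKM or less, and the formamidase gene Afmid stood at 1.76, 2.0, 2.24 and 3.13 FPKM.

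Of 15 measured genes of other NAD-using enzymes or of nicotinamide clearance (Nnmt and Aox1), 4 were called higher and 1 lower in G3 Terc-/- than in wild type. Over measured genes these shares were 9.93% and 6.25%. The median of the 15 was 0.21, close to that of the sirtuins (0.24). In G3 dKO against G3 Terc-/- 4 of the 15 were called lower, against 4.78% of measured genes, and none was called higher, against 1.51%. Parp10, a mono-ADP-ribosyltransferase, stood at 1.89, 2.69, 13.5 and 1.95 FPKM in wild type, Gadd45-/-, G3 Terc-/- and G3 dKO. Parp14 stood at 1.13, 1.44, 8.26 and 0.88 FPKM and Parp9 at 4.34, 5.78, 18.3 and 6.11 FPKM, both of them interferon-inducible members of the family. Aox1, an oxidase that clears nicotinamide derivatives, stood at 0.81, 1.20, 4.57 and 1.76 FPKM. All 4 were highest in G3 Terc-/-. The lower gene was Parp1, the main DNA-damage-activated polymerase of ADP-ribose, at 25.3, 26.0, 11.6 and 17.3 FPKM, the same order of levels as Sirt1 but for the first pair.

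Zinc-dependent deacetylases, which need no NAD, held 10 measured genes of 11. Hdac11 was called higher in G3 Terc-/- than in wild type, near the background of 9.93%, none was called lower, and the median was -0.03. Hdac11 stood at 2.77, 2.53, 6.93 and 3.83 FPKM in wild type, Gadd45-/-, G3 Terc-/- and G3 dKO, and Hdac10 at 3.70, 3.82, 2.17 and 5.0 FPKM. Of 11 acetyltransferases, which write the mark that deacetylases remove, Hat1 alone was called lower in G3 Terc-/- than in wild type and none was called higher, against 6.25% and 9.93% of measured genes. Their median was -0.28. Hat1, which acetylates newly made histones, stood at 20.5, 22.9, 9.12 and 11.8 FPKM, and Kat6b (listed as Myst4) at 4.68, 3.61, 6.35 and 6.15 FPKM. Among 6 genes of known regulators of Sirt1 none was called in any comparison. The shares of measured genes called in either direction were 16.2% between G3 Terc-/- and wild type and 0.52% to 6.66% in the other comparisons. Nothing is read from this count. The repressor gene Hic1 stood at 40.2, 36.1, 20.2 and 35.7 FPKM and its co-repressor Ctbp1 at 105, 97.0, 64.8 and 88.0 FPKM, both lowest in G3 Terc-/-, as Sirt1 was.

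Sirt6 is known to repress glycolytic genes in mouse cells. Of 8 such genes 6 were called higher in G3 Terc-/- than in wild type, against 9.93% of measured genes, with a median of 1.56 against 0.01 over measured genes. Sirt6 itself stood slightly higher there (0.31). Of the same 8, 1 (Aldoc) was called lower in G3 dKO than in G3 Terc-/-, against 4.78% of measured genes. Pdk4 and Pdk1, kinases that switch off pyruvate dehydrogenase, stood at 0.55, 0.89, 6.27 and 2.70 FPKM and at 3.20, 4.13, 15.4 and 10.1 FPKM in wild type, Gadd45-/-, G3 Terc-/- and G3 dKO. Ldhb stood at 13.0, 13.6, 52.4 and 38.6 FPKM, and the glucose transporter Slc2a1 at 57.3, 69.0, 196 and 118 FPKM. Hif1a, a hypoxia factor that drives many glycolytic genes and a Sirt1 substrate, stood at 44.6, 48.8, 202 and 115 FPKM.

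Of 12 measured genes of mitochondrial substrates of Sirt3, Sirt4 and Sirt5, 1 was called higher and 2 lower in G3 Terc-/- than in wild type, with a median of -0.15. Over measured genes 9.93% were called higher and 6.25% lower, so nothing is read from these counts. The aldehyde dehydrogenase Aldh2 was higher, at 60.6, 67.9, 157 and 98.7 FPKM in wild type, Gadd45-/-, G3 Terc-/- and G3 dKO. The isocitrate dehydrogenase Idh2, which Sirt3 activates, was lower, at 74.1, 68.9, 27.2 and 42.1 FPKM, and so was the carrier Slc25a5, at 292, 263, 127 and 168 FPKM. Slc25a5 is also among the genes nearest to Sirt1.

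**Figure D5:**
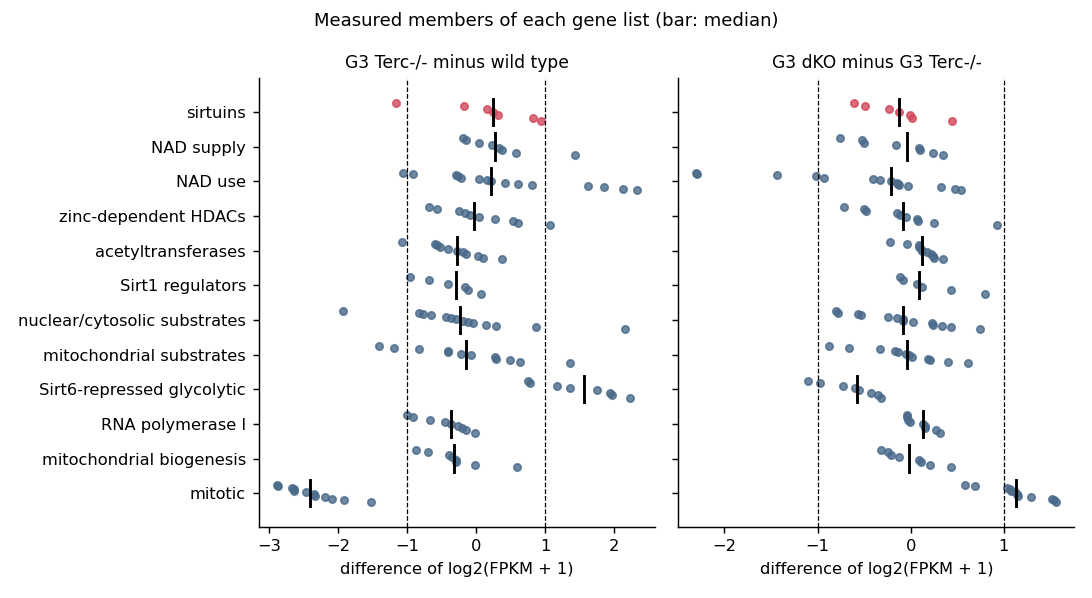
Difference of log2(FPKM + 1) of each measured member of 12 gene lists between G3 Terc-/- and wild type (left) and between G3 dKO and G3 Terc-/- (right), with the median of each list as a bar and the size rule as dashed lines. The sirtuins (red) have medians of 0.24 and -0.13, and the mitotic genes of -2.41 and 1.13.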

How the data were processed

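Polyadenylated RNA was sequenced, as the labels' protocols state. FPKM values, 1 per symbol and library, were deposited by the authors. TopHat2 2.1.1, Cufflinks 2.2.1 and build mm9 are named in the submitters' processing notes, without roles. Annotation, strand setting and filters are not given in the sources used here. With 1 value a gene, isoforms were not separated. From the 23235 symbols 739 short non-coding RNAs were left out, and 11588 of the remaining 22496 had a mean of 1 FPKM or more (measured). Differences used a pseudocount of 1 FPKM, which understates those of low genes. Depth was estimated from FPKM values up to 0.05 of genes with 1 transcript of 1500 to 8000 nt in GENCODE M21 less a 200 nt fragment. Of these values 75.0% to 78.9% lay within 0.1 of a whole fragment, at the depth chosen to maximise this share. Sirtuin fragments used the longest principal transcript with the best support. Promoter windows are RefSeq's (GRCm38.p6, 250 bases before to 50 after a start), matched by symbol for 7 of 7 sirtuins. Older symbols were matched through RefSeq synonyms. The members, the 11 other gene lists and the 8 marker lists were chosen with earlier results of these data known. Named from each list are up to 4 members past the size rule with the widest range over the libraries, or else the 2 with the widest range. Procedures were tested on simulated data. Python 3.11.15, numpy 2.4.6, pandas 2.3.3, scipy 1.17.1 and matplotlib 3.10.9 were used. A gene near Sirt1 and a promoter stretch are not reported here.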

Additional observations from a re-analysis of the deposited data

Results flagged for a closer look

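None of the 7 sirtuins had differences of at least 0.1 in opposite directions for 1 label on its 2 backgrounds at a pseudocount of 1 FPKM. Sirt1 did at the smaller pseudocounts, with -0.11 between Gadd45-/- and wild type and 0.52 between the G3 libraries at 0.5 FPKM, and -0.11 and 0.60 at 0.1 FPKM, against -0.10 and 0.44 at 1 FPKM. Of 44 other genes looked at, 22 did, against 25.5% of measured genes (many of the 44 were named for their wide range). Each difference is between single libraries, all such pairs include the G3 Terc-/- library, and the difference between backgrounds was not tested. The values are differences of log2(FPKM + 1), first Gadd45-/- minus wild type and then G3 dKO minus G3 Terc-/-.

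Lower first and higher second were Mki67 (-0.21 and 1.29), Hic1 (-0.15 and 0.79), Idh2 (-0.10 and 0.61), Rbm19 (-0.13 and 0.44) and Ctbp1 (-0.12 and 0.44). The same held for Slc25a5 (-0.15 and 0.40), Ctdp1 (-0.12 and 0.40), Polr1b (-0.10 and 0.31), Psmd13 (-0.19 and 0.14) and Nrf1 (-0.21 and 0.11).

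Higher first and lower second were Parp14 (0.19 and -2.30), Parp10 (0.35 and -2.30), Parp9 (0.34 and -1.44), Aox1 (0.28 and -1.01) and Pdk4 (0.29 and -0.97). So were Hif1a (0.13 and -0.80), Slc2a1 (0.26 and -0.73), Aldh2 (0.16 and -0.66), Pdk1 (0.29 and -0.56) and Nmnat2 (0.30 and -0.52).

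For the Terc label, G3 Terc-/- minus wild type and then G3 dKO minus Gadd45-/-, the opposite pairs were Parp10 (2.32 and -0.32), Parp14 (2.12 and -0.38), Nmnat3 (0.37 and -0.35) and Hdac10 (-0.57 and 0.32).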

How the results depend on the processing

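Pseudocounts of 0.1 and 0.5 FPKM, median-of-ratios scaling, quantile normalization and a 1.5-fold rule were tried. Between G3 Terc-/- and wild type 1 sirtuin was called, and 2 (Sirt1 and Sirt3) with either smaller pseudocount, where 20.5% and 18.5% of measured genes were called. The 1.5-fold rule gave 3 there and 1 in each of the 3 other comparisons with the G3 dKO library. Both scalings left all counts as they were, and moved the median of measured genes by at most 0.09. Of 42 differences and double differences 40 kept their sign in every setting, and the 2 that changed, Sirt6 between Gadd45-/- and wild type and Sirt2 between the G3 libraries, were at most 0.0044 in size. Sirt1 between G3 Terc-/- and wild type ranged from -1.49 to -1.17 and Sirt3 from 0.80 to 1.14. No paired analysis was possible because each genotype had 1 library. For the same reason no library could be left out within a genotype. At about 63 fragments in wild type, Sirt3 has the fewest of the family there. Neighbours in the order of libraries of Sirt5 have overlapping counting intervals. For wild type (from 3.54 FPKM) and Gadd45-/- (up to 3.62 FPKM) the overlap is narrow, and it does not place their difference within counting error.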

Other observations

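Sirt7 acts with RNA polymerase I at ribosomal DNA. All 9 measured genes of that machinery, of 10 listed, had negative differences between G3 Terc-/- and wild type, with a median of -0.36 and none called, Polr1b being just under the rule. Its second largest subunit gene, Polr1b, stood at 7.99, 7.37, 3.50 and 4.6 FPKM in wild type, Gadd45-/-, G3 Terc-/- and G3 dKO, and the factor Ubtf at 32.3, 32.0, 16.6 and 20.2 FPKM. Of 8 measured regulators of mitochondrial gene expression 7 had negative differences, with a median of -0.32 and none called. Among all measured genes 50.4% had positive differences in that comparison, and 9.93% were called higher and 6.25% lower. The coactivator Pprc1 stood at 22.8, 21.5, 12.1 and 16.7 FPKM and Nrf1 at 10.2, 8.66, 5.91 and 6.47 FPKM. Ppargc1a, a coactivator and Sirt1 substrate, was at 0.06 FPKM or less in every library.

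Among 14 measured nuclear and cytosolic substrates of Sirt1, Sirt2 or Sirt6, Hif1a was called higher and Bub1b lower in G3 Terc-/- than in wild type, with a median of -0.24. These counts are near the background of 9.93% of measured genes higher and 6.25% lower. Bub1b, a spindle checkpoint kinase stabilised by Sirt2, stood at 17.8, 16.7, 3.91 and 7.20 FPKM in wild type, Gadd45-/-, G3 Terc-/- and G3 dKO, the same order of libraries as Mki67.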
